A study of Mus musculus with 8 samples.

Results

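The genes described here code for the machinery that copies DNA and for the enzymes that make its building blocks. They are 44 genes chosen by function, from the loading of the MCM2-7 helicase at origins to the synthesis of deoxynucleotides and the rebuilding of chromatin behind the fork, among the 55487 genes in the table. RNA was sequenced from J774A.1 cells, an established line of mouse macrophages, after 24 h with LPS (1 μg/mL), a component of the bacterial cell wall that activates macrophages, or with the same dose of LPS together with 1 mM UDCA, the secondary bile acid ursodeoxycholic acid. Each group had 4 libraries, and both groups received LPS, so each comparison below is that of LPS + UDCA with LPS in 1 cell line at 1 time. The labels number the libraries of each group but do not say whether they came from separate cultures, so p-values measure the spread between these libraries, which may be technical.

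Before a cell divides, origins are licensed in G1, when ORC, CDC6 and CDT1 load the ring-shaped MCM2-7 helicase on DNA. In S phase the helicase is activated by CDC45 and the GINS complex, primase and the DNA polymerases copy both strands, PCNA holds the polymerases on the template, and ribonucleotide reductase supplies deoxynucleotides. Most of these genes are known targets of E2F transcription factors and are transcribed in G1 and S phase of cycling cells, among them macrophage lines, which grow in culture. In bulk RNA, fewer cells in S phase and less RNA per cell cannot be told apart.

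Replication genes were lower with UDCA at nearly every step. Of the 44 genes, 36 were downregulated, 0 were upregulated and 8 did not pass both thresholds, which were a 2-fold change or more and an FDR (Benjamini-Hochberg) below 0.05 in limma, fitted to the 11796 genes whose mean reached 1 TPM (reads divided by gene length and scaled to a fixed library total). Among all genes tested, 995 (8.44%) were downregulated and 1028 (8.71%) upregulated, a balance that moved to 1168 and 807 with median-of-ratios scaling and to 1144 and 823 with centring on library medians. The median log2 fold change of the 44 genes was -1.61 and their range -3.42 to 0.43, beside a median of 0.08 over all genes tested. In 42 of the 44 genes every LPS + UDCA library was below every LPS library, a pattern that 29.9% of all genes tested showed in that direction. The exact permutation test over the 70 arrangements of the libraries gives such a gene p = 0.029, the smallest p it can give. The levels of the 44 genes summed to 2578, 2564, 2506 and 2561 TPM in the LPS libraries and to 805.1, 798.0, 846.2 and 833.9 TPM in the LPS + UDCA libraries. Libraries of a group thus lay within a narrow band, and the bands were far apart. By rank of the log2 fold change from the lowest, 10 of the 44 genes were among the lowest 100 of the 11796 and 28 among the lowest 500.

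**Figure D1:**
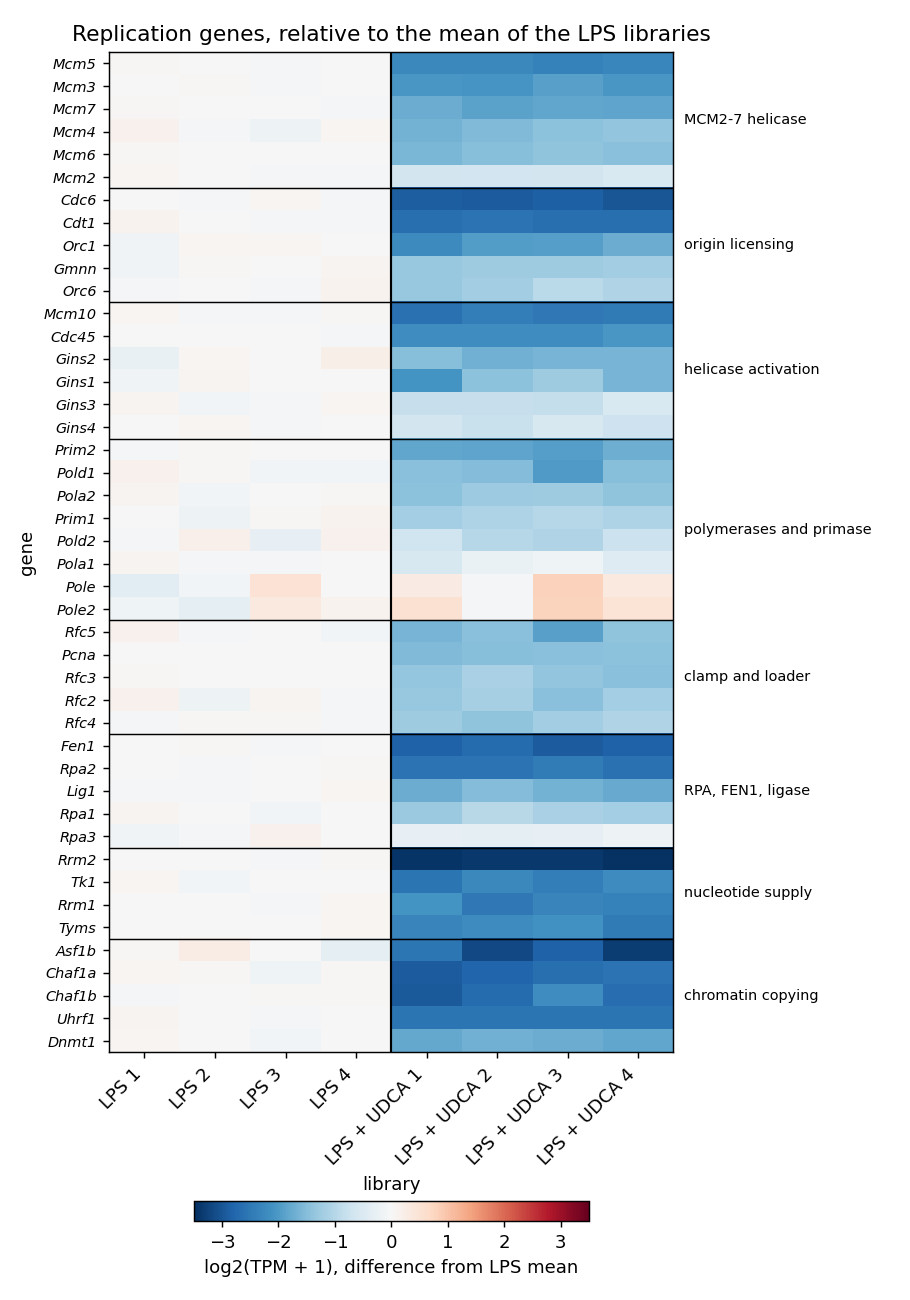
Each row is 1 gene and each column 1 library, and the colour is log2(TPM + 1) minus the mean of the 4 LPS libraries for that gene (blue, lower; red, higher), with genes grouped by step and sorted by fold change. The LPS + UDCA libraries are blue in all rows but those of Pole and Pole2, palest in Rpa3 and Pola1, and darkest in Rrm2.

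General measures of the libraries also differed between the groups. The deposited values summed to between 973190 and 977485 TPM in the LPS libraries and to between 958918 and 962737 TPM with UDCA. They thus did not share a fixed total, as TPM would by definition, for a reason not given in the sources used here. Between 11412 and 11517 genes were at 1 TPM or more with LPS and between 11648 and 11730 with UDCA, and 0 of 28 pairs of libraries held identical values. TPM keeps no record of read numbers, and the depth of the libraries is therefore unknown. Of 10 macrophage markers, 9 were at 1 TPM or more in every library and Mertk, a receptor for the uptake of dying cells, was listed at 0 in all. Their summed level was 4240 to 4472 TPM in the LPS libraries and 2081 to 2338 TPM with UDCA, so it was lower in the same libraries as the replication genes. The markers went both ways, since the means of Lyz2 (1988 and 435.5 TPM), Cd68 (541.5 and 205.8 TPM), Cd14, Itgam and Csf1r were lower with UDCA and those of Adgre1 (46.6 and 114.1 TPM), Fcgr1 (37.7 and 107.2 TPM), Spi1 and Ptprc were higher. Most of the drop in the sum was that of Lyz2, and the part of these markers in the results below was not tested. Of 25 markers of epithelial, fibroblast, endothelial, T and B cells, 22 stayed under 1 TPM in every library, with Epcam and Cd3e at 0 throughout. The exceptions were Lck, Cd79b and Vwf. The T cell markers summed to 16.6 to 23.3 TPM with LPS and 9.32 to 10.6 TPM with UDCA, nearly all of it Lck, and the B cell markers to 3.1 to 4.5 and 0.35 to 1.6 TPM. For endothelial markers the sums were 1.76 to 2.18 and 0.79 to 1.09 TPM, for epithelial markers 0 to 0.12 and 0 to 0.11 TPM, and for fibroblast markers 0.05 to 0.12 and 0 to 0.02 TPM.

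The promoters of these genes were read for short letter patterns that known regulators of the cell cycle bind. RefSeq windows of 300 bases on GRCm38.p6, from 250 before to 50 after the annotated start, were matched to 36 of the 44 genes (44 windows). Letters of the E2F site (TTTCCCGC, TTTCGCGC, TTTGCCGC or TTTGGCGC, on either strand, with overlapping matches counted) were in 15 of the 44 windows (34.1%), beside 4.19% of the 11187 windows of genes tested and 2.26% of all 32851 windows. The letters CCAAT, the core of the NF-Y site, were in 61.4% of the 44 windows, beside 38.5% of those of genes tested and 37.4% of all. For the cell cycle genes homology region (TTTGAA or TTCGAA) the shares were 20.5%, 14.3% and 19.2%, and for the GC box (GGGCGG) 70.5%, 62.4% and 35.7%. Median GC content was 59.2% in these windows, 60.7% in those of genes tested and 52.7% in all. In the 72 windows of other replication and nucleotide genes, counted further on, the shares were 16.7% for E2F letters and 38.9% for CCAAT. They were 16.7% for the cell cycle genes homology region and 75% for the GC box. A match describes letters and is no evidence of binding. Of the genes matched, 12 of the 15 genes that hold them were downregulated, with log2 fold changes from -2.91 to 0.43 and a median of -1.76, as were 18 of the 21 genes with a window and no match, from -3.42 to -0.28 with a median of -2.15.

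**Figure D2:**
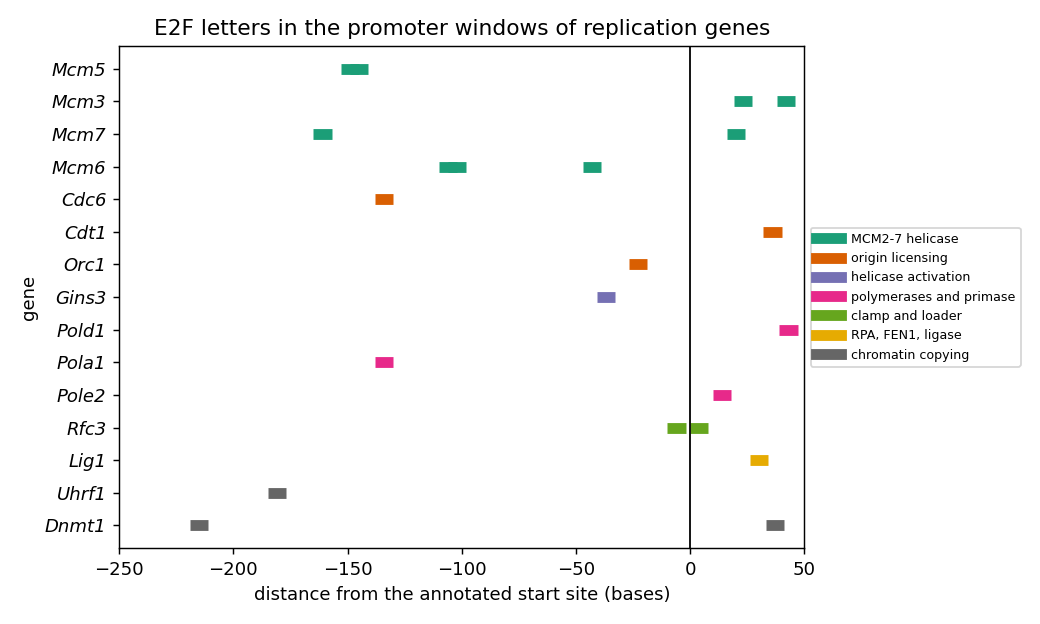
Each bar is 1 match to the E2F letters (8 bases) in the promoter window of a replication gene, placed by its distance in bases from the annotated start site, with genes coloured by step. The 22 matches in 15 genes begin between positions -219 and 39 relative to the start, and 9 of them begin at or after the start.

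The MCM2-7 helicase, a ring of 6 related subunits that unwinds DNA at the fork, was lower in transcripts of most subunits, by unequal amounts. Of the 6 genes, 5 were downregulated, with a median log2 fold change of -1.66. Stretches of the promoters with E2F letters are shown for the 4 subunit genes whose windows hold them, each with more than 1 match. The letters are in capitals, with 12 bases on either side unless the window ends sooner, as it does in Mcm3.
Mcm3: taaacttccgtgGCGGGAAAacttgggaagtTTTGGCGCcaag
Mcm5: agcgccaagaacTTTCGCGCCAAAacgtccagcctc
Mcm6, distal: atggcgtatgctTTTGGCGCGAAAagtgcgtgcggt
Mcm6, proximal: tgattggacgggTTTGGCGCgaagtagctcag
Mcm7, distal: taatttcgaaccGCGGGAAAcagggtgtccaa
Mcm7, proximal: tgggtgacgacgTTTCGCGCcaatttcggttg
On GRCm38.p6 they lie at chr1:20820263-20820305 (minus strand) for Mcm3, chr8:75109344-75109379 (plus) for Mcm5, chr1:128359792-128359827 and chr1:128359733-128359764 (minus) for Mcm6, and chr5:138172029-138172060 and chr5:138171848-138171879 (minus) for Mcm7. In Mcm5 and the distal stretch of Mcm6, a match on each strand overlaps to form an unbroken run of capitals.

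Mcm5 was at 106, 100.4, 99.7 and 103 TPM in the LPS libraries and at 20.5, 20.8, 19.2 and 20.2 TPM with UDCA, a 5.08-fold lower mean. Its log2 fold change was -2.29 ± 0.04 (SE; adjusted p = 8.3e-10, limma). Mcm3 stood highest of the 6 subunits in the LPS libraries, at 140.3, 143.7, 132 and 139 TPM, and was at 33.1, 32.5, 36.4 and 33.2 TPM with UDCA. It had a log2 fold change of -2.01 ± 0.05 (adjusted p = 2.3e-09). In both genes the groups lay far apart. Mcm2 was the exception, at 89.4, 86.2, 81.3 and 81.9 TPM with LPS and 53.5, 52.8, 54.3 and 58.7 TPM with UDCA. The libraries did not overlap, yet with a log2 fold change of -0.62 ± 0.05 (adjusted p = 3.5e-06) Mcm2 missed the fold threshold. The remaining subunits, Mcm4, Mcm6 and Mcm7, had log2 fold changes from -1.82 to -1.49. In level, Mcm2 lay below Mcm3, Mcm5 and Mcm7 in the LPS means and above all other subunits in the LPS + UDCA means, with 54.8 ± 2.67 TPM (SD, n = 4) against 33.8 ± 1.77 for Mcm3, while Mcm4 was lowest in both groups. The ratio of the highest to the lowest subunit was 3.28, 3.85, 3.93 and 3.49 in the LPS libraries and 4.65, 4.20, 4.06 and 4.21 with UDCA. Reads of Mcm7 are less certain, since 26.8% of its 31-base words also occur in transcripts of other genes.

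The licensing genes of the list were lower with UDCA, while other ORC subunits, given further on, were not. All 5 genes of this step were downregulated, with a median log2 fold change of -1.97. Cdc6, the ATPase that joins ORC to bring in the helicase, was at 21.3, 20.2, 22.1 and 20.5 TPM in the LPS libraries and at 1.97, 1.93, 2.04 and 1.75 TPM with UDCA. This is a 10.9-fold difference between means, with a log2 fold change of -2.91 ± 0.07 (adjusted p = 2.0e-09). Cdt1, which escorts MCM2-7 to the origin, was at 109, 99.3, 96.9 and 94.8 TPM with LPS and 15.4, 15.7, 15.1 and 15.2 TPM with UDCA, with a log2 fold change of -2.63 ± 0.05 (adjusted p = 9.6e-10). Both genes were low in all 4 LPS + UDCA libraries, which differed little among themselves. Orc6, the smallest ORC subunit, changed least of this step, from 47.9, 48.8, 46.7 and 53.2 TPM to 18.9, 20.4, 25.0 and 23.4 TPM. Its log2 fold change was -1.14 ± 0.09 (adjusted p = 2.8e-06). Between these lay Orc1, the ORC subunit whose level varies through the cycle, at -1.97 ± 0.11, and Gmnn, which codes for geminin, the inhibitor of CDT1, at -1.25 ± 0.06. The ratio of Gmnn to Cdt1 TPM was 0.386, 0.481, 0.472 and 0.523 in the LPS libraries and 1.16, 1.22, 1.27 and 1.26 with UDCA, without overlap. The promoter window of Cdc6, the lowest gene of this step (chr11:98907901-98908200, plus strand), is shown with E2F letters in capitals (8 bases) and holds no CCAAT. This window lies wholly inside the gene as GENCODE places it (chr11:98907801-98923940), so the RefSeq start used is downstream of the GENCODE start.
Cdc6: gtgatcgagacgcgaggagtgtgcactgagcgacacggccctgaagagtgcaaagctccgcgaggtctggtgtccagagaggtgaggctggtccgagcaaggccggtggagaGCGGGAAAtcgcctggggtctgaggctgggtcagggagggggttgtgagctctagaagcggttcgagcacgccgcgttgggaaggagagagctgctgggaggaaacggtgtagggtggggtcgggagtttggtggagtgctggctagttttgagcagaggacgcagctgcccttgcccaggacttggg
Shorter stretches with the E2F letters in capitals follow for Orc1 (chr4:108579415-108579446, plus strand) and Cdt1 (chr8:122568035-122568064, plus strand), the latter cut by the end of the window.
Orc1: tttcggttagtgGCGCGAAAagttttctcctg
Cdt1: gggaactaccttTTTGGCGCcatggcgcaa

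Genes that turn the loaded ring into the active CMG helicase (CDC45, MCM2-7 and GINS) divided into large and small declines. Of 6 genes, 4 were downregulated, with a median log2 fold change of -1.61. Mcm10, a factor that binds the helicase as it starts to unwind, was at 30.3, 27.3, 27.6 and 29.7 TPM in the LPS libraries and 3.87, 4.53, 4.29 and 4.36 TPM with UDCA. It was 6.74-fold lower, with a log2 fold change of -2.50 ± 0.07 (adjusted p = 4.3e-09). Cdc45, the partner that stays with the moving helicase, was at 55.6, 56.5, 56.2 and 54.4 TPM with LPS and 11.5, 11.5, 11.6 and 12.7 TPM with UDCA, with a log2 fold change of -2.15 ± 0.05 (adjusted p = 1.9e-09). The 4 GINS subunits, which form 1 complex, did not fall alike. Gins1 and Gins2 were downregulated, with log2 fold changes of -1.60 ± 0.16 and -1.61 ± 0.10. Gins3 was at 12.3, 10.8, 10.8 and 12.2 TPM with LPS and 6.17, 6.19, 6.05 and 7.72 TPM with UDCA, a log2 fold change of -0.74 ± 0.09 (adjusted p = 5.3e-05) short of the fold threshold. Gins4 was also short of it, at 39.3, 42.3, 38.6 and 39.5 TPM against 25.4, 23.0, 26.6 and 23.8 TPM, with a log2 fold change of -0.67 ± 0.06 (adjusted p = 5.3e-06). In neither gene did the groups overlap.

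**Figure D3:**
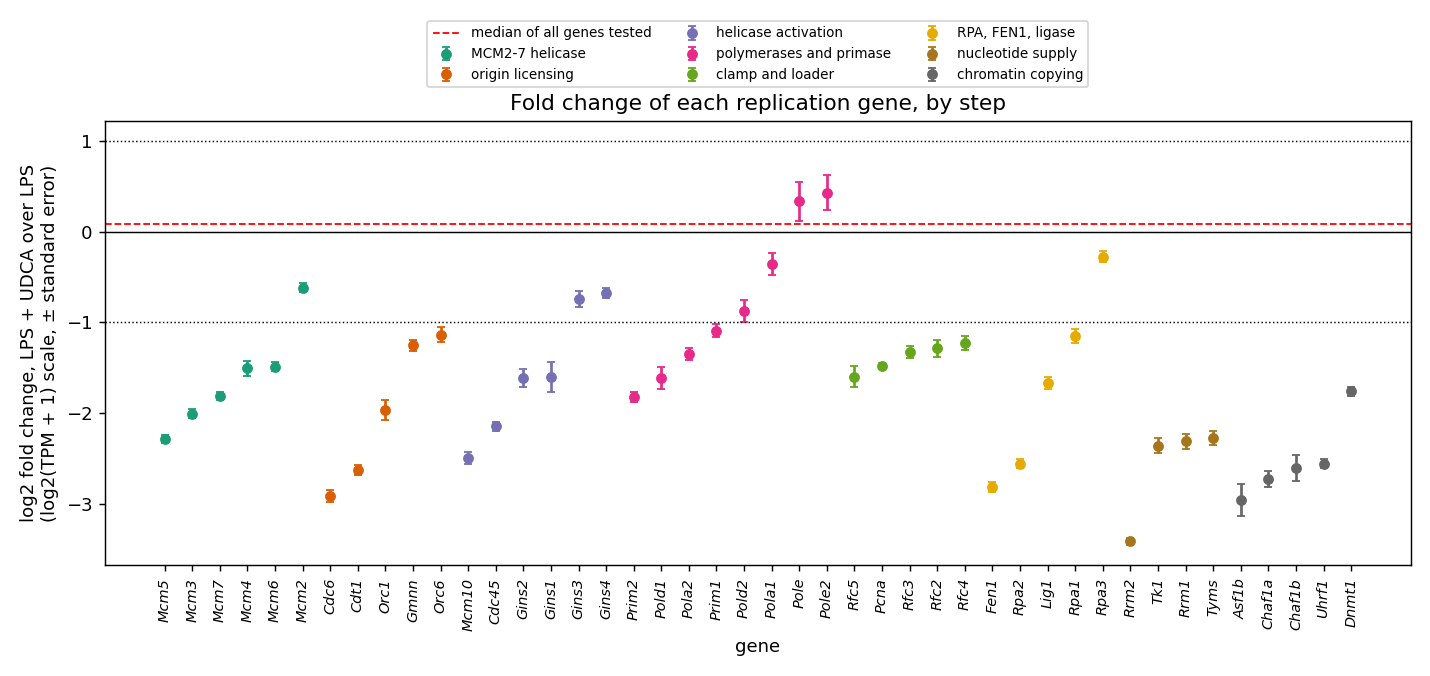
Points are the log2 fold changes of LPS + UDCA over LPS on the log2(TPM + 1) scale, with bars of ± 1 standard error from limma (4 libraries per group), and genes are coloured and ordered by step. Dotted lines mark the 2-fold threshold and the dashed line the median of all genes tested, 0.08; Rrm2 is lowest at -3.42, and only Pole and Pole2 of the 44 genes lie above 0.

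The DNA polymerases and primase had the smallest share of downregulated genes among the steps, 4 of 8, with a median log2 fold change of -0.99. Polymerase α-primase lays down the RNA-DNA primer, polymerase δ extends the lagging strand and polymerase ε the leading strand. Prim2, the large primase subunit, was lowest of the step, at 33.9, 35.8, 35.2 and 35.0 TPM in the LPS libraries and 9.13, 9.05, 8.50 and 9.99 TPM with UDCA. Its log2 fold change was -1.83 ± 0.06 (adjusted p = 1.3e-08). Pold1, the catalytic subunit of polymerase δ, was at 49.7, 45.8, 42.3 and 42.1 TPM with LPS and 15.66, 15.03, 10.52 and 15.3 TPM with UDCA, with a log2 fold change of -1.62 ± 0.12 (adjusted p = 2.2e-06). Pola2 and Prim1, the B subunit of polymerase α and the catalytic primase subunit, were downregulated too, with log2 fold changes of -1.35 ± 0.07 and -1.09 ± 0.07.

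The other 4 polymerase genes did not pass both thresholds. Pold2, the second subunit of polymerase δ, was at 65.6, 78.1, 56.1 and 76.5 TPM with LPS and 41.9, 33.7, 32.4 and 40.1 TPM with UDCA. The groups did not overlap, and the log2 fold change was -0.88 ± 0.12 (adjusted p = 0.00013). Pola1, the catalytic subunit of polymerase α, was the lowest in level of the 44 genes, at 2.72, 2.35, 2.37 and 2.47 TPM with LPS and 1.37, 1.93, 2.11 and 1.52 TPM with UDCA. It had a log2 fold change of -0.36 ± 0.12 (adjusted p = 0.023), on a scale that understates the change of a gene at so low a level. The 2 polymerase ε genes of the list were not lower. Pole, its catalytic subunit, was at 22.4, 27.9, 42.6 and 29.4 TPM with LPS and 36.6, 28.1, 52.5 and 37.8 TPM with UDCA, and Pole2, its second subunit, at 18.6, 16.5, 27.1 and 23.1 TPM with LPS and 30.8, 20.1, 36.6 and 29.4 TPM with UDCA. The groups overlapped in both genes, and within each group both genes were highest in replicate 3. The log2 fold change was 0.33 ± 0.22 for Pole (adjusted p = 0.19) and 0.43 ± 0.19 for Pole2 (adjusted p = 0.072). Fits without single libraries gave 0.18 to 0.50 for Pole and 0.31 to 0.59 for Pole2, all above 0 and under the fold threshold. The adjusted p was 0.043 for Pole and 0.033 for Pole2 without LPS replicate 3, and 0.011 for Pole2 without LPS + UDCA replicate 2. With replicate number as a block in limma it was 0.029 for Pole and 0.0036 for Pole2, still under the fold threshold. What the replicate numbers stand for is not known.

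Pole lies at chr5:110286306-110337474 (plus strand) and Pole2 at chr12:69201773-69228195 (minus strand) of GRCm38. The small accessory subunits of polymerase ε, Pole3 and Pole4, are among the other replication genes. They had log2 fold changes of -0.38 ± 0.06 (adjusted p = 0.00047) and 0.27 ± 0.05 (adjusted p = 0.00065), neither past the fold threshold. Both were without overlap of the groups, a pattern whose share of all genes tested in the higher direction, that of Pole4, is not given here. Of the 31-base words in Pole2 transcripts, 10.7% are shared with other genes, most with Gm49384, an annotated gene that overlaps Pole2 on the same strand. Gm49384 was at 4.50, 4.35, 6.04 and 6.89 TPM with LPS and 0.95, 1.04, 0.98 and 1.29 TPM with UDCA, so reads in the shared part of these annotations are uncertain. The genes annotated inside Pole (Gm15792, Gm15791 and Gm26277) were listed at 0 in all libraries. The promoter window of Pole2 holds E2F letters, in capitals (chr12:69228161-69228192, minus strand), as do those of several downregulated genes. The part of these letters in the levels was not tested.
Pole2: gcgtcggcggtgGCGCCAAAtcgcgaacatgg

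**Figure D4:**
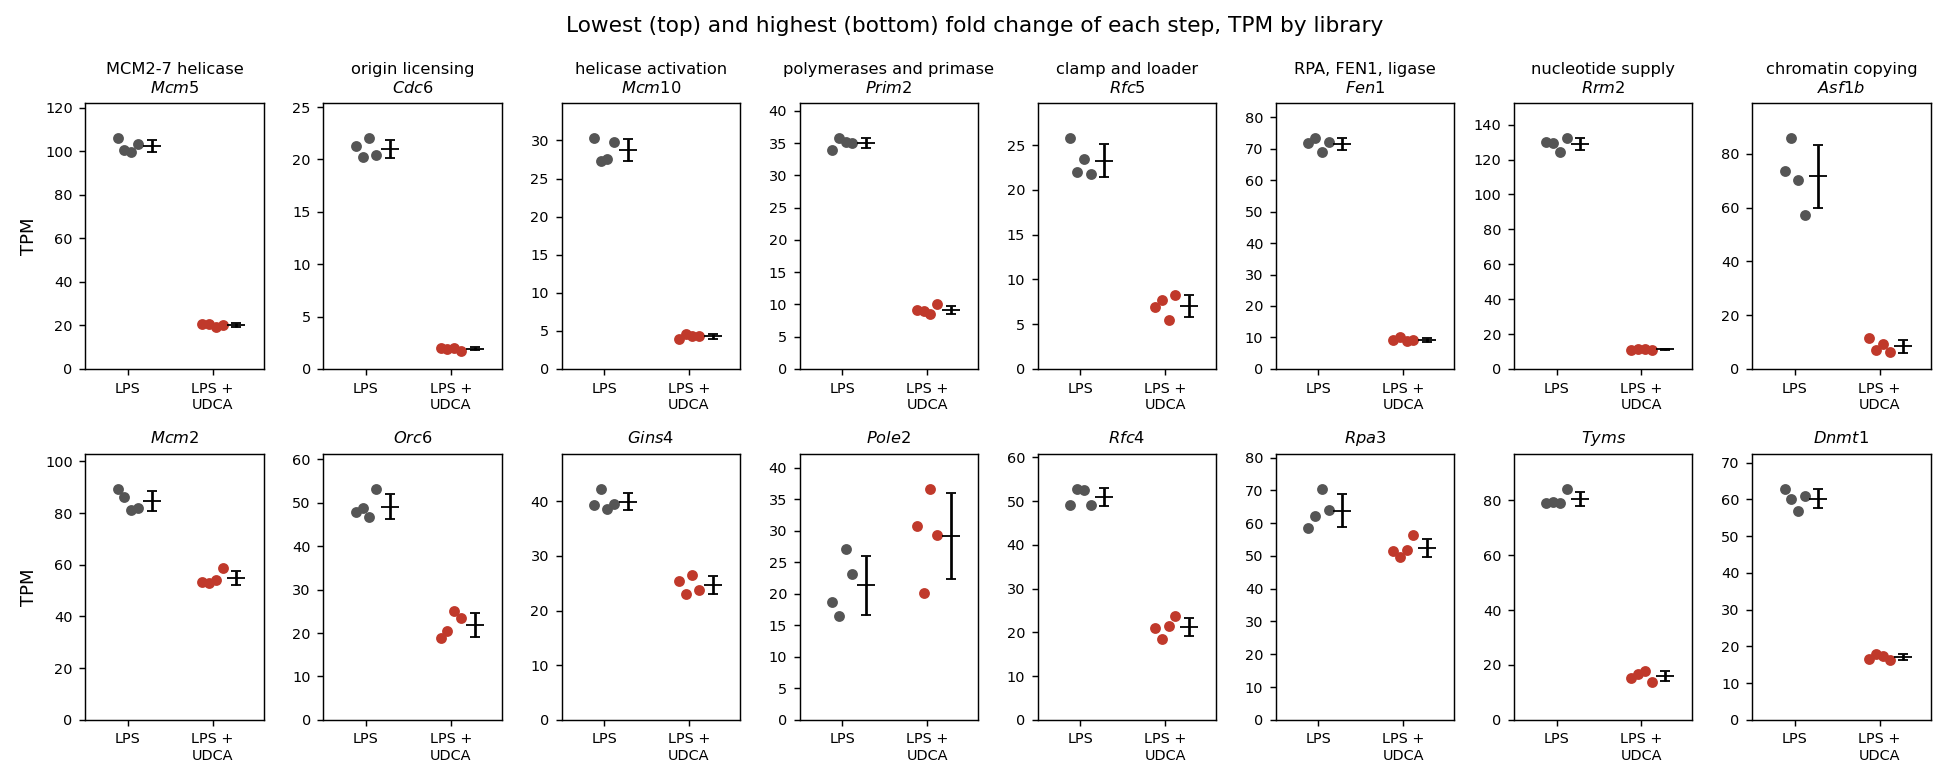
TPM of single libraries (points; grey, LPS; red, LPS + UDCA) with mean and SD of 4 libraries (black bars) for the gene with the lowest (top row) and the highest (bottom row) log2 fold change of each step, each on an axis that starts at 0. All panels but that of Pole2 show groups that do not overlap, with the widest gap relative to level in Rrm2 and narrow gaps in Mcm2, Gins4 and Rpa3.

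The sliding clamp and the small subunits of its loader were lower within a narrow range. All 5 genes were downregulated, with log2 fold changes from -1.60 to -1.23. Rfc1, the large loader subunit, is among the other replication genes counted below and was not called, with overlapping groups and a log2 fold change of -0.49 ± 0.15 (adjusted p = 0.013). Pcna, which codes for the clamp that tethers polymerases to DNA, had the highest level of the 44 genes, at 273, 272, 266 and 267 TPM with LPS and 92.0, 95.8, 97.1 and 99.3 TPM with UDCA. Its log2 fold change was -1.48 ± 0.03 (adjusted p = 1.9e-09), with 23.3% of its 31-base words shared with other genes, foremost the pseudogene Pcna-ps2. Rfc5, a small subunit of the clamp loader RFC, was lowest of this step, at 25.8, 21.9, 23.5 and 21.8 TPM with LPS and 6.88, 7.75, 5.43 and 8.20 TPM with UDCA, with a log2 fold change of -1.60 ± 0.11 (adjusted p = 1.8e-06). Rfc4 was highest, at 49.0, 52.8, 52.5 and 49.2 TPM against 21.0, 18.5, 21.5 and 23.8 TPM, with a log2 fold change of -1.23 ± 0.07 (adjusted p = 5.3e-07). The groups were apart in each of these genes. The remaining small subunits Rfc2 and Rfc3 lay at -1.29 ± 0.09 and -1.33 ± 0.07.

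Single-stranded DNA is covered by RPA, and the lagging strand is finished by the flap nuclease FEN1 and by DNA ligase 1. Of these 5 genes, 4 were downregulated, with a median log2 fold change of -1.67. Fen1 was at 71.9, 73.4, 69.0 and 72.1 TPM in the LPS libraries and 9.19, 10.2, 8.72 and 9.17 TPM with UDCA, 7.67-fold lower. Its log2 fold change was -2.82 ± 0.05 (adjusted p = 9.6e-10). The 3 subunits of the RPA trimer differed widely. Rpa2, the middle subunit, was at 70.2, 67.8, 69.1 and 72.4 TPM with LPS and 10.82, 10.85, 11.98 and 10.53 TPM with UDCA (log2 fold change -2.56 ± 0.05, adjusted p = 1.1e-09). Rpa1, the large subunit that binds DNA, had a log2 fold change of -1.15 ± 0.07. Rpa3, the smallest, was at 58.4, 62.1, 70.4 and 63.9 TPM with LPS and 51.6, 49.7, 51.9 and 56.5 TPM with UDCA, a log2 fold change of -0.28 ± 0.06 (adjusted p = 0.0034) that missed the fold threshold although the groups did not overlap. The ratio of Rpa3 to Rpa1 TPM was 0.611, 0.696, 0.836 and 0.701 with LPS and 1.45, 1.10, 1.27 and 1.46 with UDCA. Of the words of 31 bases in Rpa3, 13.3% occur in other genes. Lig1, which seals the fragments, lay at -1.67 ± 0.07. RefSeq gives Fen1 (chr19:10199132-10204169, minus strand) 2 start sites, with windows at chr19:10203872-10204171 and chr19:10204344-10204643. Both are shown for the gene with the lowest log2 fold change of this step, and neither has capitals, since neither E2F letters nor CCAAT were found in them.
Fen1, first window: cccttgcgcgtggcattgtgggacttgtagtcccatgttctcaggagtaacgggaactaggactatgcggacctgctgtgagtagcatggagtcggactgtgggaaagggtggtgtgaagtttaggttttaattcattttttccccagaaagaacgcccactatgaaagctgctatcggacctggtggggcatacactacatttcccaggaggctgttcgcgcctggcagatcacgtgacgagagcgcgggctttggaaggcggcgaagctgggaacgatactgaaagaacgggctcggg
Fen1, second window: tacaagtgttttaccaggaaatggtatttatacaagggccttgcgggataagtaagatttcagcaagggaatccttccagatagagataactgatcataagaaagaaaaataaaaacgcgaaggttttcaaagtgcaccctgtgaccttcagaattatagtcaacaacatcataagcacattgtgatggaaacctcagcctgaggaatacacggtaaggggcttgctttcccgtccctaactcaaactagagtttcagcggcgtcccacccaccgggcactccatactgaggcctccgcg

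The 4 genes of deoxynucleotide supply on the list were all downregulated, with a median log2 fold change of -2.34; of 27 other genes of nucleotide metabolism, counted below, 9 were. Rrm2, the small subunit of ribonucleotide reductase, which makes deoxynucleotides from ribonucleotides in S phase, had the lowest log2 fold change of the 44 genes and rank 16 from the lowest of the 11796 genes tested. It was at 129.95, 129.3, 124.1 and 132.3 TPM in the LPS libraries and at 11.01, 11.43, 11.44 and 10.76 TPM with UDCA. The mean was 128.9 ± 3.48 TPM with LPS and 11.2 ± 0.33 TPM with UDCA (SD, n = 4 each), 11.55-fold lower. The log2 fold change was -3.42 ± 0.04 (adjusted p = 6.9e-11). Rrm1, the large subunit of the same enzyme, lay at -2.31 ± 0.08, so the ratio of Rrm1 to Rrm2 TPM was 0.628, 0.641, 0.623 and 0.645 with LPS and 1.685, 1.195, 1.373 and 1.401 with UDCA. Tk1, the cytosolic thymidine kinase of cycling cells, was at 42.4, 37.9, 41.2 and 40.7 TPM with LPS and 6.05, 7.69, 6.70 and 7.99 TPM with UDCA (log2 fold change -2.36 ± 0.08, adjusted p = 2.7e-08). Tyms, thymidylate synthase, was at 79.2, 79.4, 79.2 and 84.2 TPM against 15.4, 16.8, 17.8 and 13.7 TPM (log2 fold change -2.27 ± 0.08, adjusted p = 1.8e-08). In all of these genes the highest LPS + UDCA library was far below the lowest LPS library. The Rrm2 promoter window (chr12:24708004-24708303, plus strand, at the 5′ end of the gene at chr12:24708241-24714146) is shown for the gene that fell most; capitals mark CCAAT (5 bases), and no E2F letters were found in it.
Rrm2: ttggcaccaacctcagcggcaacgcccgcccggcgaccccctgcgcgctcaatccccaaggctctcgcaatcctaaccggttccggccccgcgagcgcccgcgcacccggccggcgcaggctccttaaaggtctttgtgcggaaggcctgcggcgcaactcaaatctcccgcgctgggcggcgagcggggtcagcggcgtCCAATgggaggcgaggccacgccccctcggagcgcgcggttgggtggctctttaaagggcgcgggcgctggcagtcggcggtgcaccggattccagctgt

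Genes that rebuild chromatin and copy its methylation at the fork had the lowest median log2 fold change of the 8 steps, -2.61, and all 5 were downregulated. Asf1b, a chaperone that hands over histones H3 and H4, was at 73.5, 85.9, 70.2 and 57.3 TPM in the LPS libraries and 11.5, 6.99, 9.21 and 6.16 TPM with UDCA. It was 8.47-fold lower, with a log2 fold change of -2.96 ± 0.18 (adjusted p = 7.0e-07), and had more spread between libraries than the other genes of this step. Chaf1a, the large subunit of chromatin assembly factor 1, was at 38.2, 37.6, 32.6 and 37.7 TPM with LPS and 3.93, 4.50, 5.01 and 5.28 TPM with UDCA (log2 fold change -2.73 ± 0.09, adjusted p = 1.7e-08). Its partner Chaf1b lay close by at -2.61 ± 0.14. Uhrf1, which recognizes hemimethylated DNA, lay at -2.56 ± 0.05, with 24.2% of its 31-base words shared with other genes. Dnmt1, the maintenance methyltransferase that UHRF1 recruits, was highest of the step, at 62.8, 60.1, 56.7 and 60.9 TPM with LPS and 16.5, 18.0, 17.3 and 16.4 TPM with UDCA (log2 fold change -1.76 ± 0.05, adjusted p = 8.0e-09). None of these 5 genes had groups that overlapped. The Asf1b window (chr8:83955444-83955743, plus strand) is shown for the lowest gene of this step. It holds CCAAT 4 times, each time as its other strand, ATTGG (capitals), and no E2F letters.
Asf1b: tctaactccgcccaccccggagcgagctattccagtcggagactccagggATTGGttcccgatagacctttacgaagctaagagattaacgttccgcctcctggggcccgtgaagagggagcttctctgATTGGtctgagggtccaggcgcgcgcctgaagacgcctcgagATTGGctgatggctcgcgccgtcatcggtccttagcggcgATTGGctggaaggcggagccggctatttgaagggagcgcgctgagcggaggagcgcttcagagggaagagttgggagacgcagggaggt

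A further 71 genes of replication and nucleotide metabolism, listed by function and all tested, were counted beside them. Of these, 22 were downregulated, 1 was upregulated and 48 did not pass both thresholds, and the log2 fold changes had a median of -0.65. By step, 8 of 11 genes of fork and Okazaki fragment processing were downregulated (median log2 fold change -1.54), 9 of 27 of nucleotide metabolism (-0.78), 2 of 5 of clamps and loaders (-0.49), 2 of 8 of chromatin copying (-0.32), 1 of 7 of origin firing (-0.70), 0 of 6 of polymerases (-0.30) and 0 of 7 of licensing (0.24). The 3 lowest all belong to the fork. Top2a, the topoisomerase that untangles copied DNA, was at 42.8, 35.6, 34.7 and 39.8 TPM with LPS and 3.91, 6.71, 5.8 and 7.5 TPM with UDCA (log2 fold change -2.51 ± 0.16, adjusted p = 8.4e-07). Exo1, an exonuclease, was at 10.3, 8.55, 9.20 and 8.75 TPM against 1.34, 0.70, 0.50 and 0.82 TPM (-2.49 ± 0.14, adjusted p = 4.3e-07). Clspn, which codes for claspin, a fork protein of the checkpoint, was at 16.1, 11.7, 10.2 and 14.1 TPM against 1.78, 1.27, 1.46 and 2.07 TPM (-2.40 ± 0.15, adjusted p = 8.0e-07). Groups were far apart in all 3 genes.

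At the other end, Orc4 was upregulated, from 16.7, 17.7, 18.5 and 25.2 TPM to 47.2, 53.3, 58.8 and 55.8 TPM (log2 fold change 1.43 ± 0.12, adjusted p = 5.9e-06). ORC thus held subunits that moved in opposite directions, with Orc1 and Orc6 downregulated and Orc4 upregulated. The log2 fold changes of Orc2, Orc3 and Orc5 were 0.38 ± 0.10, 0.35 ± 0.09 and 0.24 ± 0.05 (adjusted p = 0.0083, 0.0047 and 0.0035), short of the fold threshold. Tk2, the mitochondrial thymidine kinase, was at 11.62, 14.94, 12.02 and 13.06 TPM with LPS and 25.3, 25.6, 26.6 and 25.4 TPM with UDCA (0.95 ± 0.08, adjusted p = 3.6e-06). Asf1a, the paralogue of Asf1b that is also used outside S phase, was at 16.6, 13.5, 14.0 and 12.8 TPM against 23.6, 25.0, 29.8 and 34.2 TPM (0.93 ± 0.12, adjusted p = 0.00010). Neither passed the fold threshold over all libraries. In neither did the groups overlap, but the share of all genes tested with that pattern in the higher direction is not given here. Each passed the fold threshold in fits without certain single libraries. The values were 1.02 for Tk2 without LPS replicate 2, and 1.00 and 1.01 for Asf1a without LPS replicate 1 and without LPS + UDCA replicate 1. Dguok, the mitochondrial deoxyguanosine kinase (named after its values were seen), had a log2 fold change of 0.47 ± 0.08 (adjusted p = 0.00067), below the fold threshold too. Rrm2b, the reductase subunit used outside S phase (named after its values were seen), was at 5.49, 5.43, 5.43 and 3.71 TPM with LPS and 8.06, 10.2, 10.1 and 10.6 TPM with UDCA (0.84 ± 0.13, adjusted p = 0.00025), also short of the fold threshold. In TPM, its ratio to Rrm2 was 0.0423, 0.0420, 0.0438 and 0.0280 in the LPS libraries and 0.732, 0.892, 0.884 and 0.986 with UDCA.

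**Figure D5:**
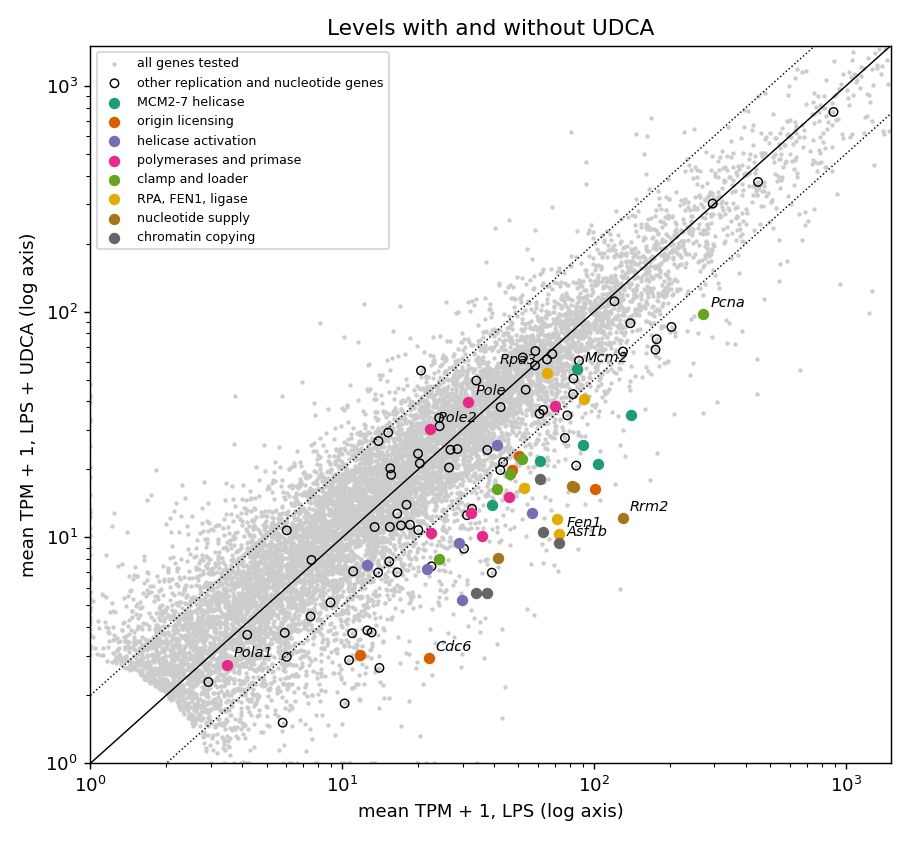
Mean TPM + 1 of 4 LPS + UDCA libraries (vertical) against that of 4 LPS libraries (horizontal), both on log axes, for all genes tested (grey), the 44 replication genes (colours by step) and the 71 other replication and nucleotide genes (open circles); the solid line marks equal levels and the dotted lines 2-fold differences. Coloured points lie below the solid line over the whole range of levels, from Pola1 at 2.48 TPM to Pcna at 269.8 TPM in the LPS libraries, except Pole and Pole2.

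Counting by gene could split reads among copies or overlapping genes, and whether it used strand is not given in the sources used here. At least 10% of the 31-base words of 6 of the 44 genes also occur in other genes, and 17 of the 44 overlap a gene on the opposite strand. Of the 23 genes with neither feature, 19 were downregulated.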

How the data were processed

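Total RNA of J774A.1 cells treated for 24 h was sequenced from libraries made with an Illumina TruSeq kit. The authors deposited TPM per gene for 8 libraries in 1 table. The submitters' processing notes name mm10, GRCm38 and Bowtie 0.12.2, and the counting program is not given in the sources used here. TPM keeps no depth. Libraries were grouped by the treatment in the labels, although the methods of the study speak of UDCA given with LPS or alone.

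Genes whose mean reached 1 TPM were taken as log2(TPM + 1) and compared in limma 3.58.1 (lmFit, then eBayes with its trend option; R 4.3.3), with Benjamini-Hochberg adjustment over all genes tested. Fold changes are on that scale, which understates changes of low genes. The procedure was tested on simulated data. The 44 genes, the related genes and the motifs were chosen with earlier results of these data known. Values in every library are given for the 2 lowest and the highest log2 fold change of each step and for each gene not past both thresholds, and for the 3 lowest and 3 highest related genes. Promoters are printed for the lowest gene of the 4 steps with the lowest medians, and the shorter stretches were chosen later. Positions, overlaps and words of 31 bases shared between genes are from GENCODE M21 (GRCm38), and promoters from RefSeq. Mcm4, Gins1, Gins2, Gins4, Gmnn, Prim2, Pole and Rfc2 had no promoter window in the table used. Alternatives covered normalization, the filter, the pseudocount, the replicate block and each library left out. Tables and figures were made with Python 3.11.15, pandas 2.3.3 and matplotlib 3.10.9.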

Additional observations from a re-analysis of the deposited data

Results flagged for a closer look

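In 7 of the 102 groups of 4 libraries examined, 1 library stood apart from the others by Dixon's ratio of its gap to the range of the group, where chance alone would flag 5.1. With UDCA, Mcm3 was at 36.4 TPM in replicate 3 (ratio 0.841) beside 32.5 to 33.2 TPM in the others, and Pold1 was at 10.5 TPM in the same replicate (0.877) beside 15.03 to 15.66 TPM. In replicate 4 of that group, Cdc45 was at 12.7 TPM (0.943) beside 11.5 to 11.6 TPM, and Gins3 at 7.72 TPM (0.916) beside 6.05 to 6.19 TPM. In replicate 1, Gmnn was at 17.9 TPM (0.874) beside 19.0 to 19.2 TPM. Among the LPS libraries, Tyms was at 84.2 TPM in replicate 4 (0.960) beside 79.2 to 79.4 TPM, and Chaf1a at 32.6 TPM in replicate 3 (0.906) beside 37.6 to 38.2 TPM. In each of these genes the single library stayed on its own group's side of the other group.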

How the results depend on the processing

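The count of downregulated replication genes was 36 under every alternative scaling, without a filter on low values, and with any 1 library left out. It was 35 with a mean of at least 10 TPM, where 41 genes were tested, 35 with a pseudocount of 5, where Prim1 (log2 fold change -0.86) missed the fold threshold, and 42 without a minimum fold change. Of 833 recomputed values of single genes, 0 changed direction. Part of these could not, since the filter, the trend option, the replicate block and the fold minimum leave a gene's log2 fold change as it was. The median log2 fold change of the 44 genes, -1.61, was -1.72 with median-of-ratios scaling, -1.70 when centred on library medians, -1.72 with a pseudocount of 0.1 and -1.37 with a pseudocount of 5. It ranged from -1.67 to -1.615 with single libraries left out. Median-of-ratios scaling moved the median of all genes tested from 0.08 to -0.02. With a mean of at least 10 TPM, 15 of 54 other replication and nucleotide genes passed both thresholds, against 23 of 71. Among all genes tested the counts were 1012 of 7072, against 2023 of 11796. Without a minimum fold change they were 62 of 71 (50 lower, 12 higher) and 8548 of 11796 (3807 lower, 4741 higher). With a pseudocount of 5, 889 of all genes tested passed both thresholds. With the replicate block the counts were 36 of the 44 genes and 2034 of all genes, and no call of a replication gene changed, but the adjusted p fell to 0.029 for Pole and 0.0036 for Pole2, with the same log2 fold changes of 0.33 and 0.43. Deviations of libraries with the same number correlated between -0.0354 and 0.146, and those of different numbers between -0.145 and 0.162. Among the LPS libraries, 2 correlated best with the LPS + UDCA library of their own number, and the others did not. These ranges overlap and rest on few libraries, so they cannot tell whether a shared number marks a shared batch. What the numbers stand for was not tested. Without depth, counting error could not be assessed.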
